A study of Homo sapiens with 12 samples.

Results

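A set of 56 genes of the interferon response and of class I antigen presentation was followed in 12 RNA-seq libraries of CWR22Rv1, an established human prostate cancer epithelial cell line. The genes were chosen by name and known role: receptors and receptor kinases, transcription factors, RNA sensors and RNA-binding enzymes, antiviral effectors, the ubiquitin-like modifier ISG15 with its partners and the PARP group, and the class I antigen presentation machinery. Earlier results of these data were known when they were chosen, so shares of members set beside all genes are descriptive. Of the 56 members, 47 had a row among the 13951 genes that the authors kept after their filter on low counts. OAS1, OASL, IFIT3, IFI27, IFI44, SAMD9, HLA-F, PSMB8 and PSMB9 had no row, so nothing is said of their levels.

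The study asked what the homeobox factor MEIS1 changes in these cells and which of those changes need HOXB13, the prostate homeobox partner of MEIS proteins. The libraries fall into 4 groups of 3. Control cells expressed Cas9 and received no guide RNA. LV-MEIS1 cells carried MEIS1 from a lentiviral vector. HOXB13ko cells expressed Cas9, were edited at HOXB13 and were a pool of 6 knockout clones. HOXB13ko-LV-MEIS1 cells were that knockout pool infected with the same MEIS1 lentivirus. All 4 lines were kept in puromycin and were cultured for 48 h before RNA was taken. No library of an empty vector was analysed here, so the genotype, the vector and the derivation of each line cannot be told apart. Each genotype was represented by 1 line or 1 pool, and nothing states that its 3 libraries came from separate cultures, so the p-values measure the spread between these libraries, which may be technical.

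MEIS1 mRNA was 4.05 to 4.45 CPM in Control (CPM are the reads of a gene scaled to a fixed library total by the authors) and 45.8 to 49.6 CPM in LV-MEIS1. It was 3.42 to 3.65 CPM in HOXB13ko and 29.3 to 30.1 CPM in HOXB13ko-LV-MEIS1. HOXB13 mRNA was not lower in the libraries labelled as knockouts: it was 185, 215 and 187 CPM in Control, 152, 150 and 151 CPM in LV-MEIS1, 347, 326 and 307 CPM in HOXB13ko, and 326, 361 and 375 CPM in HOXB13ko-LV-MEIS1. A count over the whole gene does not check an edit within it, so these values do not test the knockout labels; HOXB13ko and HOXB13ko-LV-MEIS1 below name the libraries so labelled. Markers of prostate luminal epithelium were present in every library: EPCAM was 80.4 to 111 CPM, KRT8 285 to 437 CPM, KRT18 269 to 339 CPM and KLK3 106 to 195 CPM. KLK2, an androgen-regulated kallikrein, was 282 to 295 CPM in Control and lowest in LV-MEIS1, at 106 to 112 CPM, and its part in the results was not tested. None of 7 immune markers and none of 3 endothelial markers had a row. Of 4 fibroblast markers, COL1A1 and PDGFRB had rows, and their summed level was 14.6 to 34.9 CPM, highest in the LV-MEIS1 libraries through COL1A1, whose part in the results was not tested. The depth read from the spacing of the lowest values was about 17200000 to 28700000 reads a library, so that 3 reads corresponded to 0.105 to 0.174 CPM. Replicates correlated at r of 0.99 to 0.995 over all genes, which does not separate them from libraries of other groups, since the highest r between groups was 0.994.

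Interferons are secreted proteins that cells release when they sense viral or misplaced nucleic acid. Type I interferon binds the receptor chains IFNAR1 and IFNAR2, and the kinases JAK1 and TYK2 pass its signal to STAT proteins. Interferon gamma binds IFNGR1 and IFNGR2, which also signal through JAK1. STAT2 joins IRF9 in a complex that binds the interferon-stimulated response element (ISRE) in the promoters of its targets. Those targets include sensors, effectors that hinder viral translation or entry, and parts of the machinery that loads peptides on class I molecules. In epithelial tumours this response is studied for its antiproliferative side and because class I molecules show tumour peptides to T cells.

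The members differed widely in level. Per kilobase of the Ensembl canonical transcript, the median member stood at 8.37 CPM per kb in Control. The 4 members over 50 CPM per kb were ADAR, the RNA-editing enzyme (85.1), B2M, the light chain of class I molecules (80.1), IFITM3, a membrane protein that blocks virus entry (72.5), and ISG15 (62.0). The 10 members under 2 CPM per kb held several classical interferon-induced genes, among them IFIT2 (0.308) and IFIT1 (0.247), and the lowest was NLRC5, the class I transactivator (0.181). At these levels, 20 of the 47 listed members had all 12 values below 20 CPM. The lowest group mean of any member was 0.868 CPM (IFIT2 in HOXB13ko). The authors' filter asked for 10 counts, which is 0.348 to 0.581 CPM here, and all 47 listed members had every group mean above it, so none owed its row to a single group alone.

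Promoters of the members are shown before their values because the ISRE is the sequence by which this gene set is usually recognised. RefSeq promoters (GRCh38.p14, 250 bases before to 50 after a start) were found for 45 members, of which 37 were listed, and DDX58 was matched under its current symbol RIGI. The ISRE core was searched as GAAA, any 2 bases and GAAA again, on both strands. It stood in a promoter of 23 of the 37 listed members (62.16%), against 408 of 10646 genes (3.83%) for all genes listed in the files that had a promoter. Counted by window, it stood in 24 of 48 windows of listed members (50.0%) and in 435 of 15552 windows of listed genes (2.80%). The counts by role were 7 of 8 antiviral effectors, 5 of 5 of the ISG15 and PARP group, 6 of 8 class I genes, 5 of 8 sensors, 0 of 3 transcription factors and 0 of 5 receptors and kinases. The gamma-activated site, searched as TTCNNNGAA, stood in promoters of 8 of the 37 listed members (21.62%) and of 8.41% of listed genes. At IFITM1 and MX1 such a match overlapped an ISRE match. A match is a run of letters, not a measured binding site.

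The following windows of 30 bases belong to the members that the results turn on. They run 5′ to 3′ on the strand of the gene, with the ISRE core or its reverse complement in capitals.
IFI44L at chr1:78620274-78620303, plus strand: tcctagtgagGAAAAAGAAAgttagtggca
IFI44L at chr1:78620365-78620394, plus strand: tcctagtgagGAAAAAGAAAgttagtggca
IFI6 at chr1:27672329-27672358, minus strand: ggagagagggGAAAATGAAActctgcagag
IFI6 at chr1:27672288-27672317, minus strand: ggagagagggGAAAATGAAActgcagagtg
IFIT1 at chr10:89392510-89392539, plus strand: cactttccccTTTCGGTTTCcctaggtttc
DDX60 at chr4:168318786-168318815, minus strand: gaggagaaagGAAACCGAAActcccgccgg
OAS3 at chr12:112938452-112938481, plus strand: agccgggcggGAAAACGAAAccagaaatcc
PARP12 at chr7:140062942-140062971, minus strand: ccggggccgcTTTCGGTTTCgtttcccgcc
PARP9 at chr3:122564322-122564351, minus strand: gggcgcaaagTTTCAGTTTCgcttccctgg
DTX3L at chr3:122564322-122564351, plus strand: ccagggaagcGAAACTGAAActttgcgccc
ISG15 at chr1:1013380-1013409, plus strand: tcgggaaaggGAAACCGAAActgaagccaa
The pair of IFI44L windows has identical letters, with cores that begin 164 and 73 bases before the start. PARP9 and DTX3L face away from each other and share 1 ISRE match, read on opposite strands. OAS3 and PARP12 are shown because they hold a match to the same pattern as IFI6 and IFIT1, on one strand or the other, but were lower in LV-MEIS1 where those were higher. The promoters of HLA-B, HLA-C, STAT2 and JAK1 held no match to these letters.

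**Figure D1:**
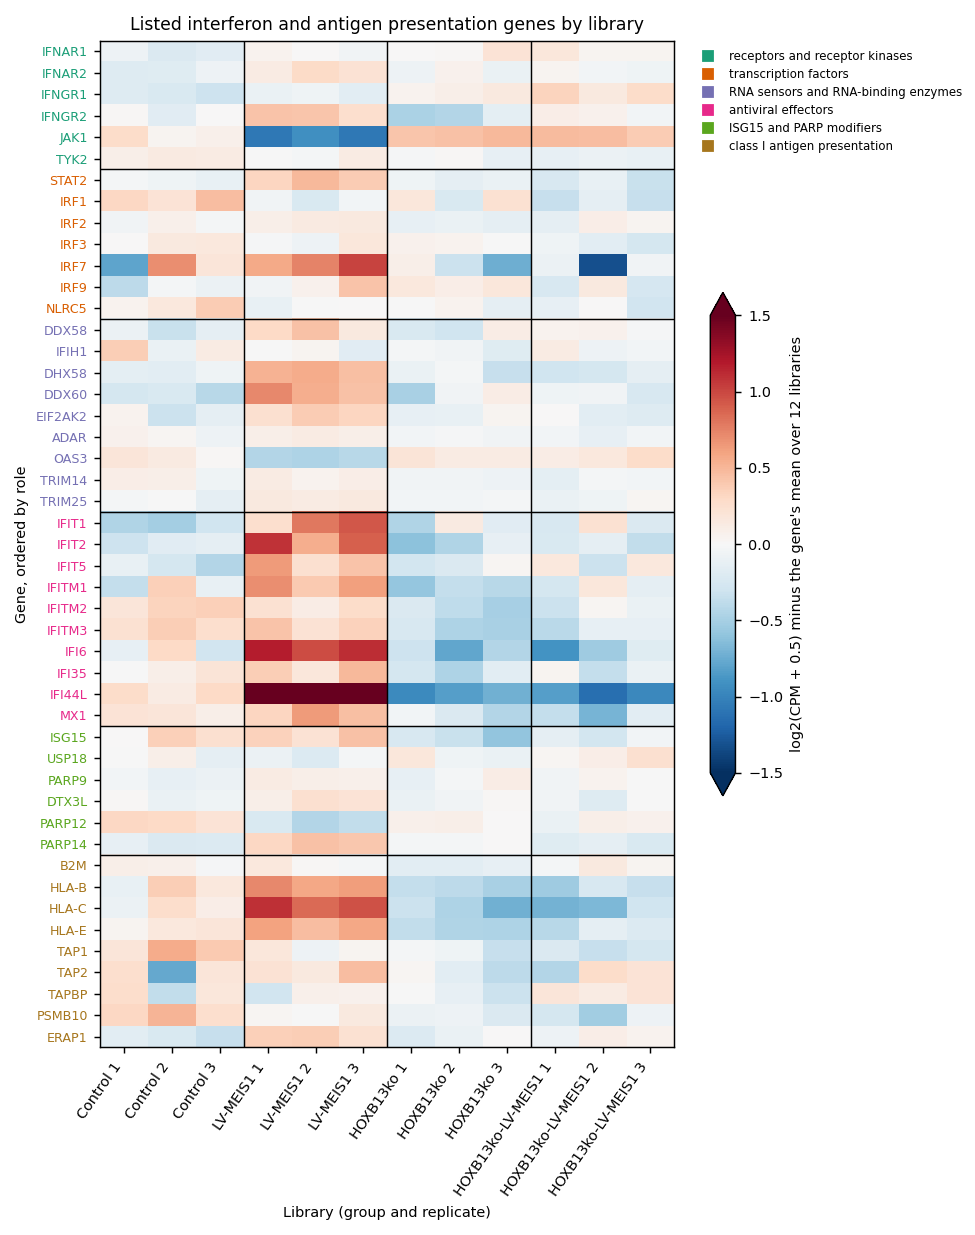
Level of the 47 listed members in each of 12 libraries, as log2(CPM + 0.5) minus the gene's own mean over the libraries; rows are ordered by role and vertical lines divide the 4 groups. IFI44L, IFI6 and HLA-C are dark red in the 3 LV-MEIS1 libraries and blue in the 6 libraries labelled as knockouts, and JAK1 shows the opposite colours.

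LV-MEIS1 was set against Control, lines not edited at HOXB13 that differ in vector as well as in MEIS1. IFI44L, an interferon-induced protein and a feedback regulator of the antiviral response, rose by 2.53-fold, and JAK1, the kinase that every interferon receptor uses, fell to 0.449 of its Control level. These 2 members were the ones that passed the test for a change beyond 1.5-fold. In the test against no change (limma eBayes) 21 members were higher and 6 lower (44.7% and 12.8%), beside 23.2% higher and 21.3% lower among all genes.

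IFI44L (chr1:78619902-78646145, plus strand, GRCh38) had 13.5, 12.2 and 13.7 CPM in the Control libraries and 34.5, 35.8 and 32.1 CPM in the LV-MEIS1 libraries. Every LV-MEIS1 library was above every Control library. The log2 fold change was 1.34 ± 0.10 (SE, n = 3 per group; limma treat against 1.5-fold, adjusted p = 6.93e-05). Its canonical transcript shares 0.03% of its 31-base words with other genes of the annotation, so its reads can nearly all be told from theirs. The neighbouring gene IFI44 had no row.

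JAK1 (chr1:64833223-65067754, minus strand) had 25.7, 21.8 and 22.4 CPM in Control and 9.85, 10.9 and 9.77 CPM in LV-MEIS1. The groups did not overlap. The log2 fold change was -1.15 ± 0.08 (SE; limma treat adjusted p = 8.28e-05). None of its 31-base words was shared with another gene. TYK2, its partner kinase at the type I receptor, was 78.8, 81.6 and 81.0 CPM in Control. It was 74.2, 73.1 and 81.4 CPM in LV-MEIS1, and these overlapped.

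Read against the background, 1 member of 47 higher and 1 lower by the 1.5-fold test (2.13% each) was near the share of all genes, which was 1.75% higher and 2.24% lower. The groups did not overlap for 26 members that were higher and 7 that were lower (55.3% and 14.9% of members), beside 26.3% and 25.1% of all genes. The median log2 fold change over the 47 members was 0.23, and 33 were above 0, beside a median of 0.01 over all genes. The summed level of the members was 2121 to 2236 CPM in Control and 2411 to 2434 CPM in LV-MEIS1.

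Among the antiviral effectors, 6 of 10 were higher against no change and none lower, with a median log2 fold change of 0.66. The shares of all genes by that test were 23.2% higher and 21.3% lower. IFI6, a mitochondrial and reticulum membrane protein, had 1.40, 2.03 and 1.20 CPM in Control and 4.18, 3.56 and 3.94 CPM in LV-MEIS1. The log2 fold change was 1.12 ± 0.21 (SE), with an adjusted p of 5.89e-04 against no change in limma eBayes and of 0.210 against 1.5-fold in limma treat. The IFIT proteins bind viral RNA ends and block its translation, and all 3 listed members lie in the IFIT cluster on chromosome 10. IFIT1 was 1.03, 0.964 and 1.20 CPM in Control and 1.98, 3.11 and 3.47 CPM in LV-MEIS1. IFIT2 was 0.930, 1.08 and 1.13 CPM in Control and 3.27, 2.10 and 2.81 CPM in LV-MEIS1. IFIT5 had a log2 fold change of 0.71 ± 0.16. The sum of the 3 IFIT genes was 4.68 to 5.04 CPM in Control and 9.30 to 10.99 CPM in LV-MEIS1, a ratio of 2.15 with no overlap. IFITM1 had a log2 fold change of 0.60 ± 0.17, but the sum of IFITM1, IFITM2 and IFITM3 was 88.2 to 101 CPM in Control and 89.4 to 101 CPM in LV-MEIS1 and overlapped.

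Of the 9 listed sensors and RNA-binding enzymes, 5 were higher against no change and 1 was lower, beside 23.2% and 21.3% of all genes. The RIG-I-like helicases were among them: DHX58 (LGP2) had a log2 fold change of 0.63 ± 0.10, and DDX58 (RIG-I) one of 0.48 ± 0.12. IFIH1 (MDA5), the third of that family, was at -0.18 ± 0.12 and did not pass. DDX60, a helicase linked to RIG-I signalling, had 3.60, 3.72 and 3.20 CPM in Control and 7.63, 6.74 and 6.22 CPM in LV-MEIS1, which did not overlap. EIF2AK2 (PKR), the kinase that stops translation on double-stranded RNA, was at 0.45 ± 0.09 and TRIM25, the ubiquitin ligase of RIG-I, at 0.19 ± 0.05. OAS3, which makes the activator of RNase L, ran the other way, with 120, 116 and 107 CPM in Control and 77.9, 76.6 and 79.3 CPM in LV-MEIS1 (log2 fold change -0.55 ± 0.06, limma eBayes adjusted p = 2.33e-06).

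In the ISG15 and PARP group, PARP14, a mono-ADP-ribosyl transferase, had 93.0, 87.6 and 88.1 CPM in Control and 126, 138 and 134 CPM in LV-MEIS1. PARP9 and its partner DTX3L, a ubiquitin ligase, were also higher against no change, by 0.18 ± 0.06 and 0.23 ± 0.06 on the log2 scale. PARP12 was lower, with 26.8, 26.4 and 24.9 CPM in Control and 18.3, 15.7 and 16.6 CPM in LV-MEIS1. ISG15 itself was 34.2, 43.8 and 40.5 CPM in Control and 43.7, 39.9 and 46.5 CPM in LV-MEIS1, which overlapped. The ISG15 protease USP18 did not pass either, at -0.09 ± 0.09.

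The class I heavy chains were higher in LV-MEIS1. HLA-C had 30.8, 39.5 and 35.3 CPM in Control and 70.9, 59.5 and 64.2 CPM in LV-MEIS1, with a log2 fold change of 0.88 ± 0.12 (limma eBayes adjusted p = 5.74e-05; limma treat adjusted p = 0.314). HLA-B had 10.7, 15.03 and 12.9 CPM in Control and 19.4, 17.4 and 18.0 CPM in LV-MEIS1, at 0.50 ± 0.12, and HLA-E was at 0.42 ± 0.11. These genes share sequence, so reads can be divided between them. Their sum does not depend on the division among the 3: it was 46.5, 59.98 and 53.7 CPM in Control and 97.9, 83.8 and 89.7 CPM in LV-MEIS1, a ratio of 1.69 with no overlap. ERAP1, the peptidase that trims peptides for class I, was at 0.56 ± 0.08. The light chain B2M was at -0.01 ± 0.06. TAP1, a chain of the peptide transporter, and PSMB10, a catalytic subunit of the immunoproteasome, were lower against no change, at -0.33 ± 0.13 and -0.30 ± 0.12. Against no change, 4 of the 9 class I genes were higher, 2 lower and 3 did not pass. Beside them, 23.2% of all genes were higher and 21.3% lower, so 2 of 9 lower was near that share.

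Beside JAK1, no receptor, receptor kinase or transcription factor passed the 1.5-fold test. IFNGR2 was at 0.41 ± 0.09 and IFNAR2 at 0.36 ± 0.07, both higher against no change, and IFNAR1, IFNGR1 and TYK2 did not pass. STAT2 had 57.2, 55.9 and 54.3 CPM in Control and 73.6, 82.2 and 76.5 CPM in LV-MEIS1 (0.47 ± 0.06). IRF1, an early interferon gamma target, was lower at -0.43 ± 0.14. IRF2, IRF3, IRF7, IRF9 and NLRC5 did not pass, though IRF7 had the largest estimate of the transcription factors, at 0.75 ± 0.37. IRF7, the amplifier of type I interferon production, had the largest ratio of highest to lowest library within a group, on CPM + 0.5. This was in Control, where its libraries had 0.871, 3.34 and 2.20 CPM.

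**Figure D2:**
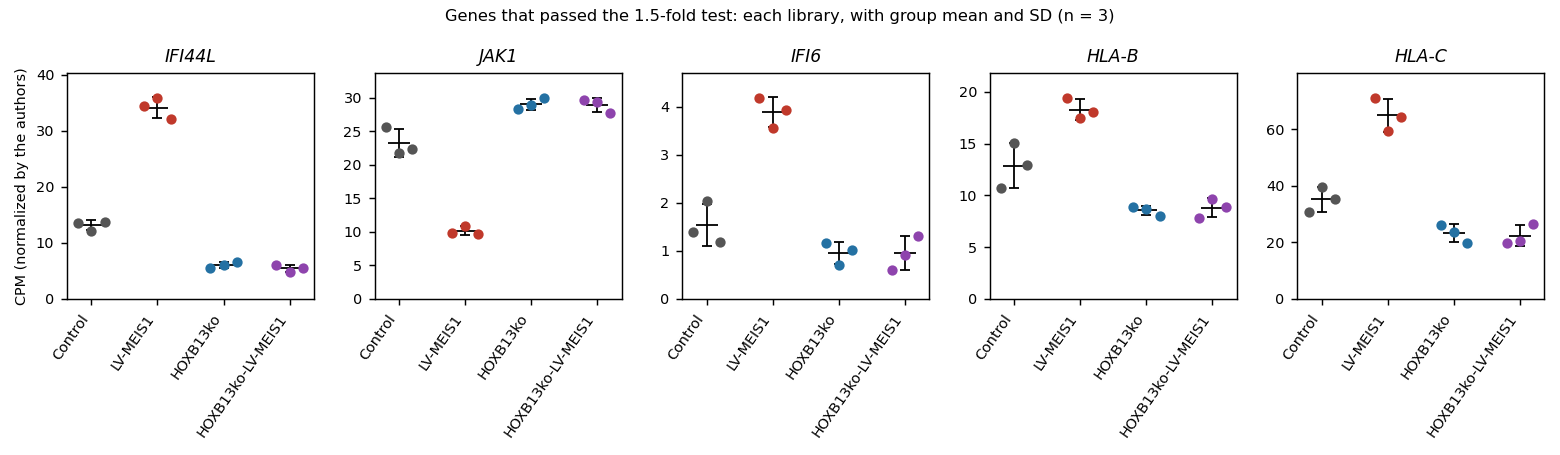
CPM of the 5 members that passed the 1.5-fold test in any comparison, with 1 point per library, the group mean as a horizontal tick and the SD over 3 libraries as the bar; each panel starts at 0. The 3 LV-MEIS1 points lie above all others for IFI44L, IFI6, HLA-B and HLA-C and below all others for JAK1, and the 2 groups labelled as knockouts lie side by side.

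The same lentivirus in the knockout pool was read from HOXB13ko-LV-MEIS1 against HOXB13ko. No member passed the 1.5-fold test or the test against no change in limma, and none had an unadjusted treat p under 0.05. Among all genes, 0.00717% were higher and 0% lower by the 1.5-fold test, and 0.0215% and 0.0287% against no change, so the members were no exception. Unadjusted, 10 members had an eBayes p under 0.05, and the smallest adjusted p was 0.128 (IFNGR2). The median log2 fold change over the members was 0.01.

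IFI44L was 5.48, 6.07 and 6.56 CPM in HOXB13ko and 6.07, 4.82 and 5.46 CPM with the lentivirus, and the 95% interval of the difference ran from -0.35 to 0.08 on the log2 scale. JAK1 was 28.3, 28.99 and 29.95 CPM in HOXB13ko and 29.7, 29.4 and 27.7 CPM with the lentivirus, with an interval from -0.17 to 0.16. The interval of HLA-C ran from -0.32 to 0.21, and that of IFI6, at about 1 CPM, from -0.47 to 0.42. For 41 of the 47 members the 95% interval lay within 1.5-fold in both directions. For the other 6 (IFNGR2, IRF1, IRF7, IFITM1, TAP2 and TAPBP) it reached past 1.5-fold. The groups did not overlap for 4 members that were higher and 2 that were lower (8.51% and 4.26%), beside 10.6% of all genes in each direction.

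**Figure D3:**
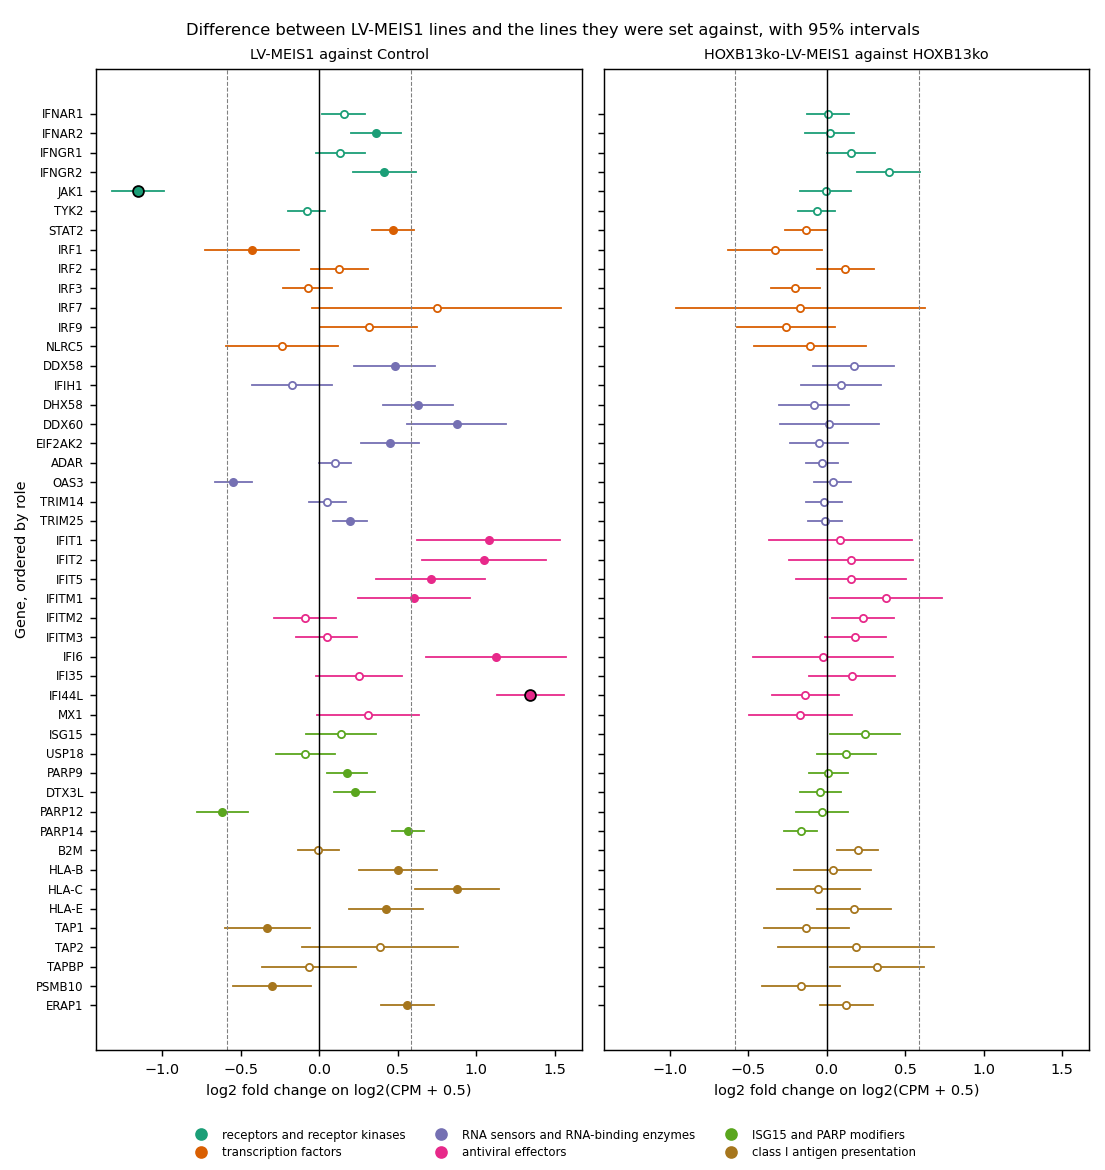
Log2 fold change of each listed member, on log2(CPM + 0.5), in LV-MEIS1 against Control (left) and in HOXB13ko-LV-MEIS1 against HOXB13ko (right), with 95% intervals; filled points passed the test against no change, black outlines the 1.5-fold test, and dashed lines mark 1.5-fold. Filled points, 21 to the right of 0 and 6 to the left, stand only in the left panel.

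The 2 MEIS1 comparisons were set against each other directly, as LV-MEIS1 minus Control less HOXB13ko-LV-MEIS1 minus HOXB13ko. This is called the difference of the MEIS1 effects below, though more than MEIS1 differs. Control and both knockout lines carried Cas9, and LV-MEIS1 is described with the lentivirus alone, so vector was not balanced. Mean MEIS1 mRNA also differed, at 47.4 CPM in LV-MEIS1 and 29.7 CPM in HOXB13ko-LV-MEIS1. HOXB13 status, vector and MEIS1 level therefore cannot be told apart in this test. IFI44L passed the 1.5-fold test, with a difference of 1.48 ± 0.14 on the log2 scale (SE; limma treat adjusted p = 6.47e-04). JAK1 passed in the other direction, at -1.15 ± 0.11 (limma treat adjusted p = 3.73e-03). By this test 1.31% of all genes were higher and 1.62% lower, and 1 member each (2.13%). Against no change, 16 members were higher and 3 lower (34.0% and 6.38%), beside 18% and 16.2% of all genes. The largest differences among those 16 after IFI44L were IFI6 (1.15 ± 0.30), IFIT1 (0.99 ± 0.30), HLA-C (0.93 ± 0.18), IFIT2 (0.90 ± 0.26), DDX60 (0.86 ± 0.21), PARP14 (0.73 ± 0.07), DHX58 (0.71 ± 0.15) and STAT2 (0.60 ± 0.09). OAS3 and PARP12, at -0.58 ± 0.08 and -0.59 ± 0.11, were lower with JAK1.

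The knockout pool without added MEIS1 was read from HOXB13ko against Control. On CPM + 0.5, IFI44L fell to 0.478 of its Control level. It went from 13.5, 12.2 and 13.7 CPM to 5.48, 6.07 and 6.56 CPM, with no overlap. The log2 fold change was -1.07 ± 0.10 (SE; limma treat adjusted p = 0.0124). It was the single member that passed the 1.5-fold test, and the call was lost without Control replicate 3 or HOXB13ko replicate 1, where the adjusted p rose as far as 0.0721. By this test 0.652% of all genes were higher and 0.76% lower. As in every comparison here with those libraries, the direction belongs to the labelled pool, whose HOXB13 mRNA was above Control.

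Against no change, 14 members were lower and 4 higher (29.8% and 8.51%), beside 16.4% and 16.5% of all genes. The median log2 fold change was -0.12 over the members and -0.002 over all genes. The groups did not overlap for 17 lower and 5 higher members (36.2% and 10.6%), beside 23.1% and 21.8% of all genes. Of the 9 class I genes, 6 were lower and none higher. HLA-C had 26.1, 23.6 and 19.8 CPM in HOXB13ko (-0.59 ± 0.12), and HLA-E had 3.66, 3.42 and 3.38 CPM (-0.55 ± 0.11). HLA-B had 8.91, 8.68 and 8.04 CPM (-0.55 ± 0.12). TAP1 was at -0.52 ± 0.13, PSMB10 at -0.48 ± 0.12 and B2M at -0.20 ± 0.06. The summed HLA-B, HLA-C and HLA-E level was 31.2 to 38.7 CPM, all below the lowest Control value of 46.5 CPM.

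IFITM2 had 41.1, 45.8 and 46.3 CPM in Control and 30.9, 27.6 and 25.4 CPM in HOXB13ko (-0.66 ± 0.09). IFITM3 was at -0.68 ± 0.09, and the sum of the 3 IFITM genes was 55.5 to 65.5 CPM, below every Control library. ISG15 had 28.9, 27.0 and 22.5 CPM in HOXB13ko (-0.59 ± 0.10), also below every Control library. IFI35 was at -0.39 ± 0.13 and PARP12 at -0.22 ± 0.08. Of the 9 sensors none passed in either direction, and neither did any of the 7 transcription factors. The receptor group was split. IFNAR1, IFNGR1 and JAK1 were higher, at 0.23 ± 0.06, 0.34 ± 0.07 and 0.32 ± 0.08, and IFNGR2 and TYK2 were lower, at -0.30 ± 0.09 and -0.15 ± 0.06.

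The 2 lines that carry the MEIS1 lentivirus were compared as HOXB13ko-LV-MEIS1 against LV-MEIS1. On CPM + 0.5, IFI44L was at 0.171 of its LV-MEIS1 level, IFI6 at 0.324, HLA-C at 0.348 and HLA-B at 0.494. On the same scale JAK1 was 2.76-fold higher. In plain CPM the IFI6 means were 3.89 in LV-MEIS1 and 0.950 in HOXB13ko-LV-MEIS1, a wider gap. MEIS1 mRNA was also lower in the knockout pool with the lentivirus than in LV-MEIS1, by a log2 fold change of -0.66 ± 0.07, and its part in these results was not tested.

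For IFI44L the log2 fold change was -2.54 ± 0.10 (SE; limma treat adjusted p = 1.08e-09). For JAK1 it was 1.46 ± 0.08 (limma treat adjusted p = 4.79e-07). IFI6 had 0.611, 0.923 and 1.32 CPM in HOXB13ko-LV-MEIS1, below all 3 LV-MEIS1 libraries, at -1.63 ± 0.21 (limma treat adjusted p = 2.06e-03). HLA-C had 19.9, 20.4 and 26.7 CPM, at -1.52 ± 0.12 (limma treat adjusted p = 4.19e-05). HLA-B had 7.81, 9.68 and 8.92 CPM, at -1.02 ± 0.12 (limma treat adjusted p = 0.0176). The HLA-B call was lost without LV-MEIS1 replicate 1, without HOXB13ko-LV-MEIS1 replicate 1 and under quantile normalization, with adjusted p up to 0.0988. IFIT2, at -1.08 ± 0.18 (limma treat adjusted p = 0.111), passed when LV-MEIS1 replicate 2 was left out.

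These 4 lower members and 1 higher member (8.51% and 2.13%) stood beside 3.42% and 3.29% of all genes. Against no change, 31 members were lower and 5 higher (66% and 10.6%), beside 26.1% and 24% of all genes. The groups did not overlap for 32 lower and 6 higher members (68.1% and 12.8%), beside 30.1% and 28.2% of all genes. The median log2 fold change was -0.29 over the members and -0.02 over all genes. All 10 listed antiviral effectors were lower against no change, from -0.33 for IFITM2 to -2.54 for IFI44L. MX1, a GTPase that blocks influenza viruses, had 5.20, 6.62 and 5.75 CPM in LV-MEIS1 and 3.07, 2.32 and 3.60 CPM in HOXB13ko-LV-MEIS1 (-0.87 ± 0.15). Of the 9 sensors, 6 were lower, among them DHX58 (-0.74 ± 0.10) and DDX60 (-0.69 ± 0.15), and OAS3 was higher at 0.62 ± 0.06. STAT2 (-0.63 ± 0.06), IRF7 (-1.27 ± 0.37) and IRF3 (-0.19 ± 0.07) were lower among the transcription factors. In the ISG15 and PARP group PARP14 was at -0.57 ± 0.05 and ISG15 at -0.48 ± 0.10, while PARP12 was at 0.37 ± 0.08. In the class I group HLA-E was at -0.80 ± 0.11 and ERAP1 at -0.29 ± 0.08, and B2M, TAP2 and TAPBP did not pass. The 4 comparisons share libraries, so their values are not independent of each other.

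**Figure D4:**
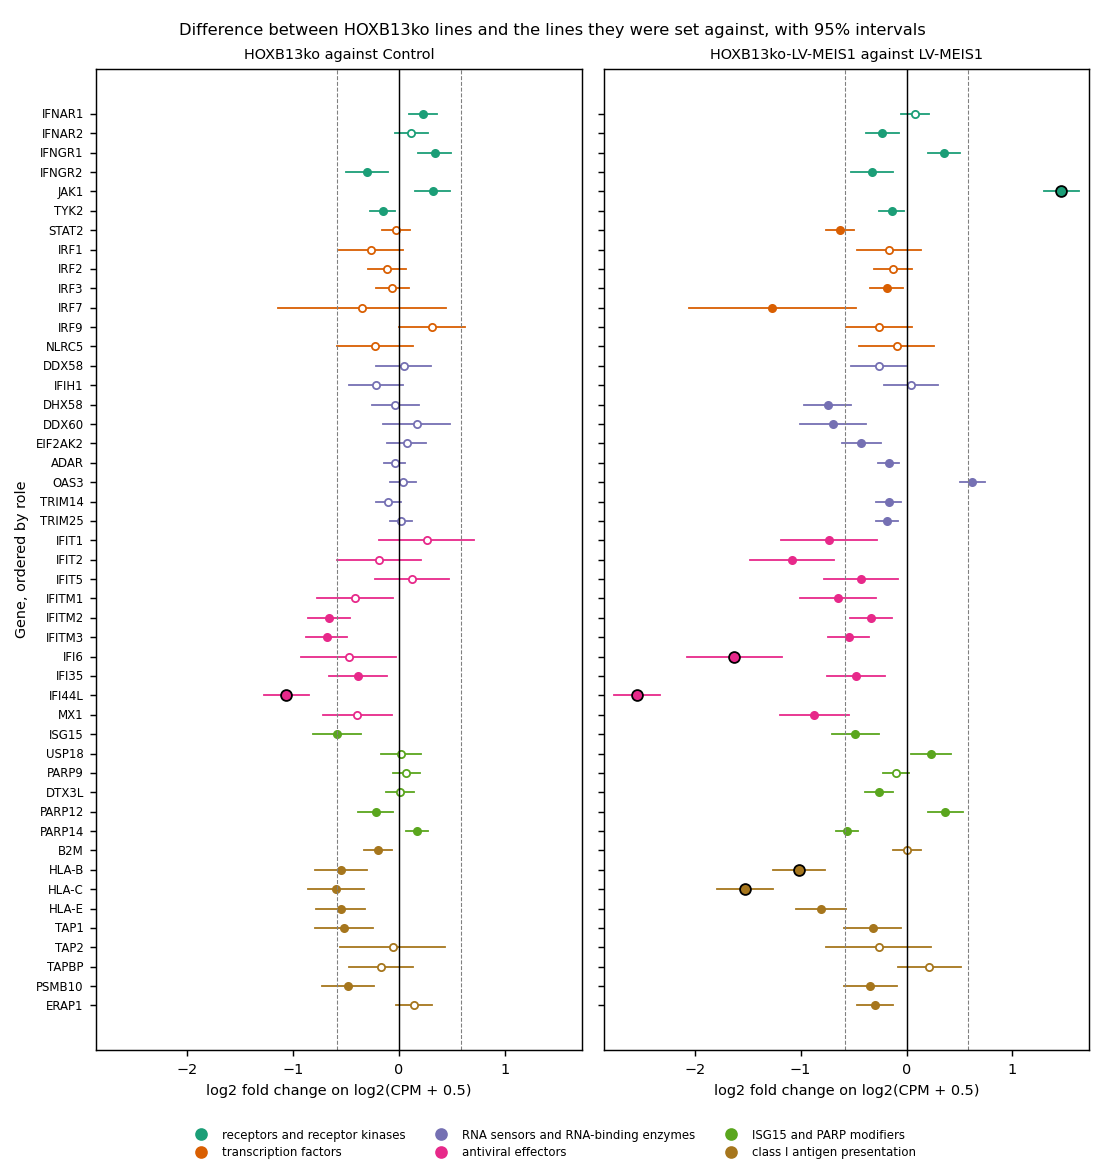
Log2 fold change of each listed member, on log2(CPM + 0.5), in HOXB13ko against Control (left) and in HOXB13ko-LV-MEIS1 against LV-MEIS1 (right), with 95% intervals; symbols as in the plot of the LV-MEIS1 lines. In the right panel 31 filled points lie below 0 and 5 above, with IFI44L at -2.54 and JAK1 at 1.46 as the ends.

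Members with and without an ISRE core in the promoter were set side by side as a description. In LV-MEIS1 against Control, the median log2 fold change was 0.23 for the 23 with a match and 0.22 for the 14 without one. In HOXB13ko-LV-MEIS1 against LV-MEIS1 the medians were -0.34 and -0.22. IFI44L, IFI6, IFIT1 and DDX60 held the core and were higher in LV-MEIS1. OAS3 and PARP12, whose windows are printed above, held it and were lower. HLA-C and HLA-B, with no match to these letters, were higher.

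Genes of the pathway outside the 56 were also tallied, and 62 of them had rows. In LV-MEIS1 against Control, 13 were higher and 11 lower against no change (21% and 17.7%), beside 23.2% and 21.3% of all genes, with a median log2 fold change of 0.05. HLA-DMB, an accessory chain of class II presentation, was the single one that passed the 1.5-fold test, with 1.27, 0.159 and 0.269 CPM in Control and 6.16, 4.22 and 2.41 CPM in LV-MEIS1 (2.22 ± 0.34; limma treat adjusted p = 4.39e-03). The 2 lower Control values amount to a few reads. It also passed the test of the difference between backgrounds (2.32 ± 0.48, limma treat adjusted p = 0.0463). In HOXB13ko against Control 9 were higher and 11 lower against no change (14.5% and 17.7%), beside 16.5% and 16.4% of all genes. LGALS3BP, a secreted glycoprotein, passed the 1.5-fold test there at -1.32 ± 0.13. In HOXB13ko-LV-MEIS1 against HOXB13ko none passed either test.

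In HOXB13ko-LV-MEIS1 against LV-MEIS1, 16 of the 62 were higher and 22 lower against no change (25.8% and 35.5%), beside 24% and 26.1% of all genes. GBP1, an interferon gamma-induced GTPase, had 6.98, 7.15 and 5.69 CPM in LV-MEIS1 and 1.93, 1.72 and 1.87 CPM in HOXB13ko-LV-MEIS1 (-1.60 ± 0.14). Its Control libraries had 3.06, 2.80 and 3.16 CPM, between the other 2 lines. HELZ2, a nuclear coactivator (-1.03 ± 0.10), and LGALS3BP (-1.04 ± 0.13) also passed as lower, and ISG20, an exonuclease, as higher (1.10 ± 0.11). Of the interferon ligands searched, IFNA1, IFNB1, IFNE, IFNG, IFNK, IFNL1, IFNL2 and IFNL3 had no row.

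How far the reads of a member can be told from those of other genes limits its value. Of the 47 listed members, 18 shared 10% or more of the 31-base words of their canonical transcript with another annotated gene. For 6 the share was over 50%: DDX58 (96.6%), IRF9 (92.9%), IFNAR2 (92.1%), USP18 (62.3%), IFITM1 (59.4%) and PSMB10 (51.6%). For IFNAR2, 48.1% of the words recur in the annotated read-through gene IFNAR2-IL10RB. HLA-B shared 32.0%, IFI6 24.4% and HLA-C 19.6%, and by this measure these are less certain than IFI44L and JAK1. PARP9 and DTX3L overlap at their starts on opposite strands. Within a group, on CPM + 0.5, the highest library was over 1.5 times the lowest for 7 members. Outside the low-level genes this held for TAP2 and TAPBP. This scale understates the ratios of low-level genes, so more of them may pass in plain CPM. TAP2 had 35.7, 17.4 and 34.0 CPM in Control, and TAPBP had 45.0, 29.0 and 42.4 CPM, with the low value in the same library.

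**Figure D5:**
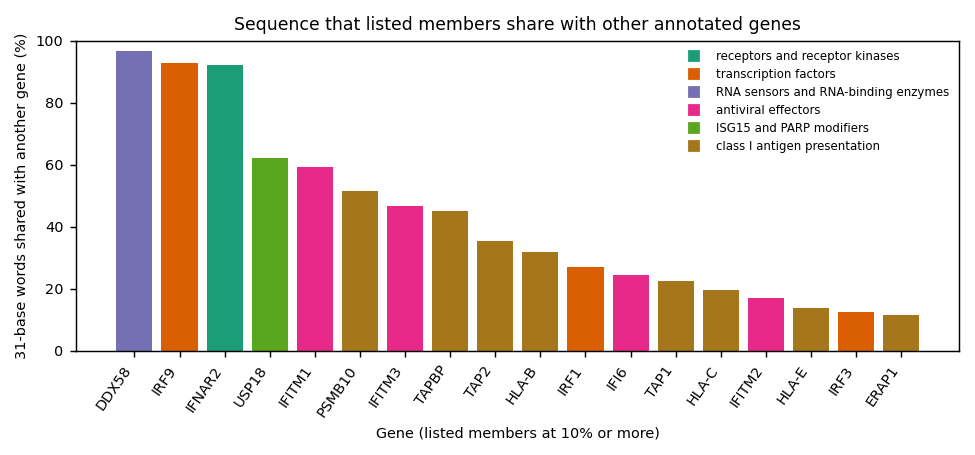
Percent of the 31-base words in the canonical transcript that also occur in another gene of the annotation, for the 18 listed members at 10% or more; bars are coloured by role and start at 0. DDX58, IRF9 and IFNAR2 stand at 92.1% or more, and IFI44L (0.03%) and JAK1 (0%) are not among the bars.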

How the data were processed

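RNA was poly-A selected, prepared with a stranded kit and sequenced as single-end 50 base reads. Per the labels and the methods, the authors trimmed reads with Trimmomatic 0.38, estimated transcript counts with kallisto 0.43.1 on GRCh38.p12, summed them to genes, removed lowly expressed genes (judged at 10 counts over the samples of a group) and normalized with edgeR 3.22.2. The authors deposited normalized CPM, 1 column per library and 1 file per group. Each file held 13993 rows, of which 42 were exact repeats and were dropped, leaving 13951 genes.

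CPM are not counts, so log2(CPM + 0.5) of all genes in 12 libraries was fitted in limma 3.58.1 (R 4.3.3) with 1 term per group. The main test was treat against a fold change of 1.5 with trend, and a gene was called at a Benjamini-Hochberg adjusted p under 0.05 over all 13951 genes. The eBayes test against no change was an alternative. Fold changes are on the log2(CPM + 0.5) scale, which understates those of low genes. The script was tested on simulated data. Members and lists were chosen with earlier results of these data known. All members are described, with every library's value for those called. The others are described by role group, naming members of high or low level or of large change. Many that passed eBayes alone with a log2 change over 0.4 are named, but not all of them in every comparison. Positions, transcript lengths and 31-base words came from GENCODE 44 (GRCh38).

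Library depth came from the step between low values, which gave whole reads (within 0.1) for 47.5% to 61.2% of them, too few for a count test. Same-numbered libraries did not deviate together, so numbers were not used to pair them. One luminal marker of the fixed list is not reported here.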

Additional observations from a re-analysis of the deposited data

Results flagged for a closer look

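IFI44L and JAK1 differed between LV-MEIS1 against Control and HOXB13ko-LV-MEIS1 against HOXB13ko, by a test of the difference itself. Vector and MEIS1 level also differ between these comparisons, so HOXB13 status cannot be told apart from them. For IFI44L the difference of the log2 fold changes was 1.48 (limma treat adjusted p = 6.47e-04). Its log2 fold change was 1.34 where HOXB13 was kept and -0.14 in the labelled knockout pool. For JAK1 the difference was -1.15 (limma treat adjusted p = 3.73e-03), with values of -1.15 and -0.01. Both were past the threshold in each alternative tried for this comparison.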

How the results depend on the processing

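Over the alternatives tried, no member changed direction where it was called. The main limit is the test. Against no change (eBayes) the members called higher and lower were 21 and 6 in LV-MEIS1 against Control (all genes 3236 and 2971), 4 and 14 in HOXB13ko against Control (2301 and 2289), 5 and 31 in HOXB13ko-LV-MEIS1 against LV-MEIS1 (3352 and 3641), and 16 and 3 for the difference of the MEIS1 effects (2509 and 2262). In HOXB13ko-LV-MEIS1 against HOXB13ko no member and 3 and 4 of all genes were called. With a fold change over 1.5 required afterwards, the members were 9 and 2 (all genes 821 and 815), 0 and 5 (394 and 412), 2 and 13 (962 and 1277), and 9 and 2 (1097 and 761), and 4 of all genes were lower in HOXB13ko-LV-MEIS1 against HOXB13ko. At an adjusted p under 0.01 IFI44L was no longer called in HOXB13ko against Control (0 members), and 109 of all genes were higher for the difference.

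Scaling to an equal sum gave member medians of -0.013 in HOXB13ko-LV-MEIS1 against HOXB13ko, -0.33 against LV-MEIS1 and 0.21 for the difference, and quantile normalization gave 0.038 and -0.23 in the former 2. No scaling moved the median of all genes by more than 0.04. With a pseudocount of 0.1, or in a fit over only the libraries compared, 1 of all genes was lower in HOXB13ko-LV-MEIS1 against HOXB13ko. The replicate numbers do not pair the libraries (correlations of deviations from -0.207 to 0.0319), and with the replicate block the member calls kept their counts and 1 of all genes was lower in that comparison.

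Leaving out 1 library gave member medians of 0.19 to 0.24 in LV-MEIS1 against Control, -0.13 to -0.077 in HOXB13ko against Control, -0.002 to 0.03 in HOXB13ko-LV-MEIS1 against HOXB13ko, -0.31 to -0.27 against LV-MEIS1 and 0.15 to 0.20 for the difference. Members called lower ranged from 0 to 1 in HOXB13ko against Control, and all genes called lower from 0 to 1 in HOXB13ko-LV-MEIS1 against HOXB13ko. Depth limits IFI6, IFIT1, IFIT2, IRF7 and NLRC5, which lie at about 1 to 4 CPM.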
